A study of Mus musculus with 4 samples.

Results

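The genes described here are the chaperones and co-chaperones of cultured embryonic sensory neurons, as measured with and without added human PROM1, a membrane glycoprotein. They were taken by mouse symbol from the deposited expression table: Hsp70 and Hsp110 (Hspa, Hsph), Hsp90 (Hsp90a), the small heat shock proteins (Hspb), Hsp60 and Hsp10 (Hspd, Hspe), the J proteins (Dnaja, Dnajb, Dnajc), the TRiC subunits (Cct), prefoldin (Pfdn) and the Bag proteins. Hspa5, Hsp90b1, Hspb1 and Dnajb9 were left out by the rule. In all 71 symbols matched, with 84 of the 14236 listed transcripts. Of these 70 had values in every library, among 11258 genes in the table, and Bag1 had none. A total of 65 had a mean of at least 1 FPKM (mapped fragments scaled to transcript length and library size) and were tested. The rule goes by name and not by place in the cell. By textbook knowledge at least 17 of the 70 act in mitochondria, the endoplasmic reticulum or the cilium. The word "cytosolic" thus fits most of the genes but not all.

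The cultures were dissociated dorsal root ganglion (DRG) neurons from mouse embryos of day 13.5, fed nerve growth factor, with the antimitotic pair fluorodeoxyuridine and uridine in the medium. On day 2 in vitro they received lentivirus carrying human PROM1 (also called CD133; 2 libraries) or the control pLKO virus (2 libraries). The mouse strain, the promoter of the PROM1 virus and the pooling of embryos are not given in the labels, and the labels give day 5 for replating without saying whether these cultures were replated. The series text calls the libraries biological duplicates, but it names no separate litters or dissections, so p-values measure the spread between these libraries. The human transgene was not analysed here, and the level of PROM1 in these cultures is unchecked.

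Chaperones keep other proteins folded, assembled and free of aggregates. Hsp70 binds short hydrophobic stretches of a client in a cycle of ATP hydrolysis that J proteins start and that nucleotide exchange factors, among them Hsp110 and the Bag proteins, end. Hsp90 takes over nearly folded clients such as kinases and steroid receptors, small heat shock proteins hold unfolded chains, and prefoldin hands nascent actin and tubulin to the ring-shaped chaperonin TRiC. In neurons, whose axons lie far from the cell body and which rarely divide, J proteins also uncoat clathrin vesicles and fold synaptic vesicle proteins.

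All 12 markers of sensory neurons were detected, led by Uchl1, Prph and Tubb3, and their summed FPKM was 3940 and 4666 in the PROM1 libraries and 4564 and 4884 in the control libraries. Of the glial markers 5 of 10 were listed (Sox10, S100b, Mbp, Pmp22 and Gjc3), with sums of 44.7 and 45.9 FPKM in PROM1 and 76.5 and 56.3 FPKM in control libraries. Pmp22 alone had 18.8 and 20.7 FPKM in PROM1 and 44.9 and 28.8 FPKM in control libraries. Mbp was also lower in PROM1 without overlap, while the groups overlapped for Sox10, S100b and Gjc3. Of the fibroblast markers 3 of 7 were listed (Col1a1, Col1a2 and Fbln1). Their sums were 7.94 and 8.48 FPKM in PROM1 and 2.67 and 4.37 FPKM in control libraries. Col1a1 and Col1a2 were higher in PROM1 without overlap, while the groups overlapped for Fbln1. Of 6 macrophage markers, 2 were listed (C1qb and Aif1). Their sums were 1.79 and 1.99 FPKM in PROM1 and 3.80 and 3.51 FPKM in control libraries. C1qb was lower in PROM1 without overlap. Aif1 overlapped, with 1.45 and 0.821 FPKM in PROM1 and 1.50 and 0 FPKM in control libraries. Of 5 markers of dividing cells, 1 was listed, Pcna, with 8.54 and 12.3 FPKM in PROM1 and 3.68 and 9.59 FPKM in control libraries. Of 5 endothelial and mural markers 1 was listed, with 3.43 and 1.51 FPKM in PROM1 and 3.63 and 3.83 FPKM in control libraries. All 4 globin genes searched were listed, with sums of 461.2 and 594.6 FPKM in PROM1 and 503.4 and 625.8 FPKM in control libraries. Markers not listed were not analysed here. The part of these cells in the values below was not tested, and in such mixed RNA fewer cells of a type and less RNA per cell cannot be told apart. PROM1 library 2 and control library 2 held 237 and 283 transcripts at exactly 0, against 121 and 89 in PROM1 library 1 and control library 1.

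No chaperone gene passed the test between PROM1 and control cultures. With limma over all 10108 tested genes, 0 of the 65 members had an adjusted p under 0.05, where 0.0198% of all genes did (2 genes, both lower in PROM1), and the lowest adjusted p of a member was 0.939 (limma). At an unadjusted p under 0.05, 2 members were higher in PROM1 (Dnajc19 and Dnajc30) and 0 were lower, against 2.33% of all genes higher and 2.36% lower. The authors' deposited table marked 0 of the 84 member transcripts as significant, where it marked 0.204% of all transcripts. For 10 members the lower PROM1 library exceeded the higher control library (15.4%, against 16.5% of all tested genes) and for 9 the order was the opposite (13.8%, against 17.5%). The median log2 change of the members, on log2(FPKM + 1), was -0.07, and that of all tested genes was -0.03. Lower means in PROM1 were found for 37 of the 65 members (56.9%), where 53.5% of all tested genes were lower. These shares are close to the background. The 10 were Hspa2, Hspe1, Dnaja2, Dnajc7, Dnajc13, Dnajc19, Dnajc30, Cct4, Cct5 and Bag6, and the 9 were Hspa8, Hspa4l, Hspb6, Dnajb2, Dnajc8, Dnajc16, Bag2, Bag3 and Bag4. With 2 libraries in each group, an exact permutation test cannot give a two-sided p under 0.333.

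The absolute log2 change was under 0.5 for 54 of the 65 members (83.1%), as for 80.5% of all tested genes. It was 1 or more for 3 members, and the share of all tested genes with such a change was not counted. The 95% interval of the change lay between -1 and 1 on the log2 scale for 33 members. For those genes a doubling or a halving on the scale of log2(FPKM + 1) lies outside the interval.

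**Figure D1:**
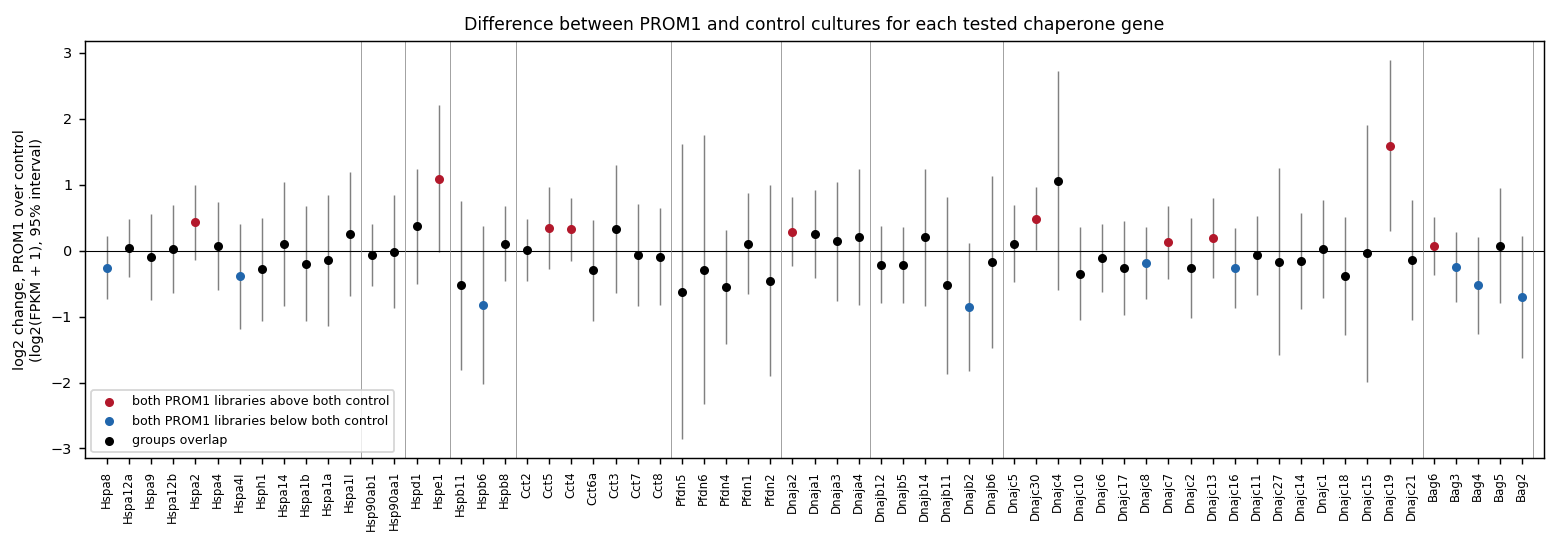
Log2 change (PROM1 over control, on log2(FPKM + 1)) of the 65 tested chaperone genes, grouped by class, with 95% intervals from limma (bars). Red points mark the 10 genes whose PROM1 values are all higher than their control values and blue points the 9 whose PROM1 values are all lower; the intervals of Dnajc19 and Dnajc30 alone exclude 0, before adjustment over genes.

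The transcripts were very unequal in level, and a constitutive Hsp70 and a constitutive Hsp90 held most of the total. Hspa8, the constitutive cytosolic Hsp70 (Hsc70), had 1308 and 1163 FPKM in PROM1 libraries 1 and 2 and 1458 and 1493 FPKM in control libraries 1 and 2. It ranked 35th by mean level among the genes of the table. The groups did not overlap, with PROM1 the lower, and the interval of the difference included 0 (log2 change -0.26, 95% interval -0.74 to 0.22). Hsp90ab1, the constitutive Hsp90 beta, had 1168 and 1042 FPKM in PROM1 libraries and 1145 and 1156 FPKM in control libraries, which overlap (log2 change -0.06, interval -0.53 to 0.41). It ranked 42nd. Together the 2 genes made up 72.7% and 69.4% of the summed FPKM of the 70 genes in PROM1 libraries and 75.2% and 72.1% in control libraries.

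The summed FPKM of the 70 genes was 3406 and 3180 in PROM1 libraries and 3460 and 3677 in control libraries, so both PROM1 sums were below both control sums. Most of that gap was 1 gene: PROM1 minus control, the mean of Hspa8 differed by -239.8 FPKM, which is 87.2% of the difference of -275.1 FPKM in the mean sum. Without Hspa8 and Hsp90ab1 the sums were 930.1 and 974.4 FPKM in PROM1 and 856.9 and 1027 FPKM in control libraries, and the groups overlapped. As a share of all FPKM in the library, the 70 genes held 0.952% and 0.838% in PROM1 and 0.958% and 0.953% in control.

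**Figure D2:**
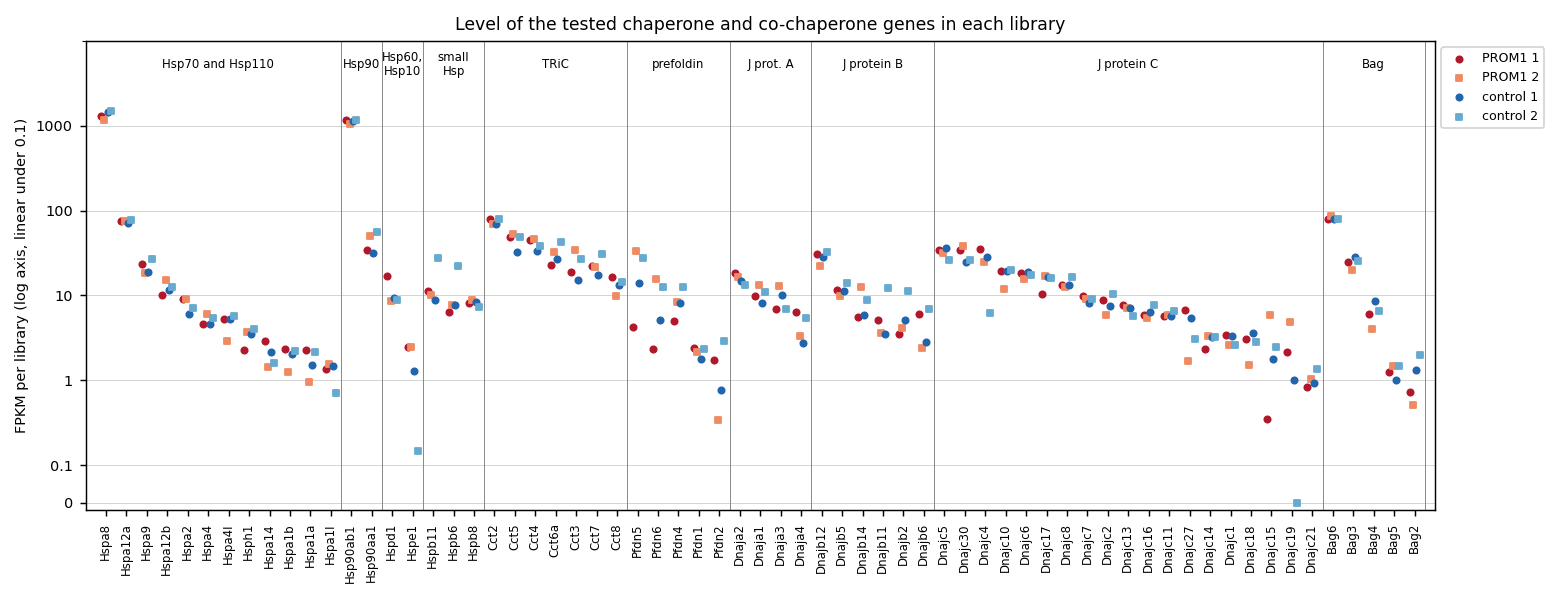
FPKM (log axis, linear under 0.1) of each of the 65 tested chaperone genes in the 4 libraries, by class and, within a class, by mean level. Hspa8 and Hsp90ab1 stand above 1000 FPKM, apart from the other 63 genes, and control library 2 is at 0 for Dnajc19.

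Next in the Hsp70 class were Hspa12a, a distant Hsp70 relative that is abundant in brain, and Hspa9, the mitochondrial Hsp70 (mortalin). Hspa12a was nearly level, with 75.7 and 75.9 FPKM in PROM1 libraries and 70.6 and 76.5 FPKM in control libraries. Hspa9 had 23.2 and 18.6 FPKM in PROM1 and 18.6 and 26.7 FPKM in control libraries, and the groups overlapped. Hspa2, a testis-enriched Hsp70 also present in brain, had the largest positive change of the class. It had 9.15 and 9.18 FPKM in PROM1 and 6.08 and 7.04 FPKM in control libraries, so the groups did not overlap, and its interval included 0 (log2 change 0.43, -0.14 to 1.00). Hspa4l, an Hsp110 family exchange factor, had the most negative change, with 5.20 and 2.94 FPKM in PROM1 and 5.31 and 5.65 FPKM in control libraries (log2 change -0.39, -1.18 to 0.40). PROM1 library 1 was close to the control libraries there, and PROM1 library 2 was apart. Hsph1, the heat-inducible Hsp110, had 2.26 and 3.67 FPKM in PROM1 and 3.49 and 4.02 FPKM in control libraries, and the groups overlapped. The other tested Hsp70 genes were Hspa4, Hspa12b, Hspa14 and Hspa1l, with overlapping groups and log2 changes from 0.02 to 0.26.

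The stress-inducible cytosolic Hsp70 genes were low. Hspa1a had 2.30 and 0.964 FPKM in PROM1 libraries and 1.52 and 2.15 FPKM in control libraries. Hspa1b had 2.31 and 1.26 FPKM in PROM1 libraries and 2.03 and 2.24 FPKM in control libraries. For both genes PROM1 library 1 was the highest of the 4 and PROM1 library 2 the lowest. The FPKM of Hspa8 was 283.9 and 523.7 times the sum of Hspa1a and Hspa1b in PROM1 libraries, and 410.0 and 339.6 times in control libraries. Hspa1a and Hspa1b are near-identical gene copies, and a read may fit either, which leaves the division between them uncertain. Their likeness extends upstream of the start, as the 150 bases before each start show (RefSeq, GRCm38.p6, minus strand, 5′ to 3′, at chr17:34972157-34972306 for Hspa1a and chr17:34959239-34959388 for Hspa1b). They are shown because 149 of the 150 bases were identical, and because both hold a match to a heat shock element of 2 units, in capitals, the repeat bound by the factor Hsf1.
Hspa1a: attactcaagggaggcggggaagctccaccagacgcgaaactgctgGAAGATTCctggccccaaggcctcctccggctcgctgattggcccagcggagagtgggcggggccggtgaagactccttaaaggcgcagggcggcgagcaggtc
Hspa1b: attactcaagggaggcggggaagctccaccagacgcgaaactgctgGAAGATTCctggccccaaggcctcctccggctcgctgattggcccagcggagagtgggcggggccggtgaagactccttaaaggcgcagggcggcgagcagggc

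Textbook genes of the heat shock response under Hsf1 were read as a list. Of 16 such genes, some of them co-chaperones outside the name rule, 14 had values and all 14 were tested, while Dnajb1 and Dnajb4 were not analysed here. In PROM1 cultures 5 had higher means (Hspd1, Hspe1, Dnaja1, Chordc1 and Ahsa1). Means were lower for 9: Hspa1a, Hspa1b, Hsph1, Hsp90aa1, Bag3, Hspa4l, Fkbp4, Stip1 and the constitutive Hspa8. The median log2 change was -0.17, against -0.03 over all tested genes. By limma 0 passed the adjusted test, and 0 had an unadjusted p under 0.05. Without each library in turn the sign changed for Hspa1a, Hspa1b, Hsp90aa1 and Hspd1. It held for Hspa8, Hsph1, Hspe1, Dnaja1, Bag3, Hspa4l and Stip1. Chordc1, Ahsa1, Fkbp4 and the median of the list were not followed in this way. Hsf1 itself had 25.2 and 23.6 FPKM in PROM1 libraries and 25.9 and 24.2 FPKM in control libraries, a log2 change of -0.03 (interval -0.51 to 0.44), and the groups overlapped.

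Motifs for this factor were searched in the 250 bases before each start in the RefSeq promoter table, on both strands. A promoter was held for 57 of the 71 symbols. None was held for Hspa8, Hsp90ab1, Hsp90aa1, Hspa9 and Cct4, among others, so these genes were not searched. The element of 3 units was GAANNTTC followed after any 2 bases by a further GAA, or the reverse complement of that run. It was found for 3 of the 57 genes (5.26%: Dnajb6, Hspd1 and Hspe1) and for 139 of all 27025 genes with a promoter (0.514%). The element of 2 units, GAANNTTC or TTCNNGAA, each its own reverse complement and each contained in the longer element, was found for 13 of the 57 (22.8%) and for 14.6% of all genes. Hspd1 and Hspe1 share the same element of 3 units, and the near-identical copies Hspa1a and Hspa1b both hold the shorter one. Each gene was counted by itself in these shares, so the matches are not all separate sites. A match describes letters in a window and is not a measured binding site.

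Hspd1 and Hspe1 encode Hsp60 and Hsp10, the chaperonin and lid of the mitochondrial matrix, and they are transcribed in opposite directions from neighbouring starts. In RefSeq (GRCm38.p6) a start of Hspd1 lies 216 bases from that of Hspe1, and both upstream windows hold the same element of 3 units. It is printed on the plus strand in a window of 30 bases at chr1:55088053-55088082, because both genes share it. Overlapping matches are in capitals. The capitals span 18 bases, longer than a single element of 3 units, because matches in both orientations overlap there. An annotated start of Hspd1 also lies on the far side of the Hspe1 start, so the element can fall within some Hspd1 transcripts.
Hspd1-Hspe1 element: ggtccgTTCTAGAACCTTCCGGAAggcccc

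Hspd1 had 16.9 and 8.51 FPKM in PROM1 libraries and 9.24 and 8.94 FPKM in control libraries. PROM1 library 1 was high, and PROM1 library 2 was below both control libraries (log2 change 0.37, interval -0.50 to 1.24). Hspe1 had 2.44 and 2.46 FPKM in PROM1 libraries and 1.28 and 0.147 FPKM in control libraries, and the groups did not overlap. The log2 change of Hspe1 was 1.09 (interval -0.02 to 2.21). It was 0.60 without control library 2, 1.59 without control library 1 and 2.13 with a pseudocount of 0.1. PROM1 library 1, the highest of the 4 for Hspd1, was at the level of PROM1 library 2 for Hspe1.

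J proteins, which start the Hsp70 cycle, had 29 tested members, of which 12 had higher and 17 lower means in PROM1, with a median log2 change of -0.11 and 0 passing the test (limma, adjusted). Their summed FPKM was 329.2 and 311.5 in PROM1 and 305.9 and 306.8 in control libraries. The Hsp70 and Hsp110 class held 4.40 and 4.17 times the J protein sum in PROM1 libraries and 5.18 and 5.35 times in control libraries, so the groups did not overlap in this ratio. Hspa8 makes up most of its numerator.

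Class A holds the J proteins built like bacterial DnaJ. All 4 of its tested members had higher means in PROM1, with log2 changes of 0.14 to 0.29 and a median of 0.23. Without each library in turn the sign held for Dnaja1 and Dnaja2 and changed for Dnaja3 (-0.27 to 0.54) and Dnaja4 (-0.18 to 0.59). Dnaja2, a cytosolic partner of Hspa8, had 18.5 and 16.5 FPKM in PROM1 and 14.9 and 13.3 FPKM in control libraries, which did not overlap (log2 change 0.29, interval -0.23 to 0.81). Dnaja1, a farnesylated cytosolic J protein, had 9.91 and 13.3 FPKM in PROM1 and 8.24 and 11.0 FPKM in control libraries, and the groups overlapped. Dnaja3, the mitochondrial member (Tid1), had 6.85 and 12.8 FPKM in PROM1 and 10.2 and 6.97 FPKM in control libraries, and they overlapped too. Dnaja4 had 6.38 and 3.34 FPKM in PROM1 and 2.76 and 5.38 FPKM in control libraries, with overlap.

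Of the 6 tested class B members, which have a J domain at the start and no zinc finger, 5 had lower means in PROM1, with a median log2 change of -0.21 that was 0.08 without control library 2, -0.52 without control library 1 and -0.57 without PROM1 library 1. Dnajb2 (HSJ1), a J protein enriched in neurons that steers clients to the proteasome, had the most negative change of the 65 genes. It had 3.48 and 4.12 FPKM in PROM1 and 5.15 and 11.3 FPKM in control libraries. The groups did not overlap, control library 2 was far above control library 1, and the interval included 0 (log2 change -0.86, -1.83 to 0.11; -0.36 without control library 2). Dnajb12, an endoplasmic reticulum membrane protein whose J domain faces the cytosol, was the most abundant, with 30.4 and 22.3 FPKM in PROM1 and 28.4 and 32.5 FPKM in control libraries. Dnajb5 had 11.6 and 9.93 FPKM in PROM1 and 11.4 and 13.9 FPKM in control libraries. Dnajb14, a relative of Dnajb12 in the same membrane, had 5.63 and 12.5 FPKM in PROM1 and 5.81 and 8.89 FPKM in control libraries. In each of these 3 genes the groups overlapped. Control library 2 was again the highest of the 4 for Dnajb11, which works with the Hsp70 of the endoplasmic reticulum lumen, and for Dnajb6, which holds back polyglutamine aggregation. Dnajb11 had 5.18 and 3.63 FPKM in PROM1 and 3.52 and 12.1 FPKM in control libraries. Dnajb6 had 6.09 and 2.39 FPKM in PROM1 and 2.83 and 6.96 FPKM in control libraries.

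Class C gathers proteins that share the J domain and little else. Dnajc5 (cysteine string protein), which keeps SNARE proteins of synaptic vesicles folded, was the most abundant of the class and was not separated between groups. It had 34.2 and 31.6 FPKM in PROM1 libraries and 35.8 and 25.8 FPKM in control libraries (log2 change 0.11, interval -0.47 to 0.69). Dnajc6 (auxilin), which with Hspa8 strips clathrin from vesicles, had 18.1 and 15.5 FPKM in PROM1 and 18.9 and 17.5 FPKM in control libraries (log2 change -0.11, -0.63 to 0.41). Dnajc18 had the most negative change of the class, with 3.08 and 1.53 FPKM in PROM1 and 3.59 and 2.80 FPKM in control libraries, and the groups overlapped. Dnajc13, a protein of endosome sorting, and Dnajc7, which binds both Hsp70 and Hsp90, were higher in PROM1 without overlap by small margins. Dnajc13 had 7.72 and 7.16 FPKM in PROM1 and 7.08 and 5.71 FPKM in control libraries, and Dnajc7 had 9.71 and 9.19 FPKM in PROM1 and 8.03 and 9.15 FPKM in control libraries. Dnajc8, a protein found with the spliceosome, was lower in PROM1 by a small margin, with 13.38 and 12.5 FPKM in PROM1 and 13.39 and 16.4 FPKM in control libraries. Dnajc15, a mitochondrial relative of Dnajc19, had the widest gap of the class between libraries of a group on log2(FPKM + 1), with 0.348 and 5.83 FPKM in PROM1 and 1.79 and 2.49 FPKM in control libraries.

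Both members with an unadjusted p under 0.05 were J proteins of mitochondria. Dnajc30, a mitochondrial J protein, had 33.9 and 38.2 FPKM in PROM1 and 24.9 and 25.9 FPKM in control libraries. The groups did not overlap and the libraries within each group were close (log2 change 0.49, interval 0.01 to 0.96, adjusted p = 0.939 by limma). Without each library in turn the log2 change of Dnajc30 stayed between 0.40 and 0.57. Dnajc19, related to the J protein of the mitochondrial import motor, had 2.16 and 4.82 FPKM in PROM1 libraries and 1.02 FPKM in control library 1, and it was listed at 0 in control library 2. Its log2 change was 1.59 (interval 0.29 to 2.90, adjusted p = 0.939 by limma), from 1.09 to 2.10 without each library in turn, and 3.32 with a pseudocount of 0.1. For both genes the unadjusted p was above 0.05 with a pseudocount of 0.1 and with each transcript fitted by itself. It was also above 0.05 for Dnajc30 without any 1 of the 4 libraries, and for Dnajc19 without control library 2 or without PROM1 library 2. Dnajc4 had 35.4 and 24.8 FPKM in PROM1 and 28.7 and 6.25 FPKM in control libraries. Its log2 change of 1.06 rested on control library 2, without which it was 0.05. Among the 8 members placed in mitochondria, all tested, 5 had higher and 3 had lower means. Their median log2 change was 0.26 beside -0.03 for all tested genes. Without each library in turn the sign held for Hspe1, Dnajc19 and Dnajc30 and changed for Hspd1, Hspa9, Dnaja3, Dnajc11 and Dnajc15.

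Most Bag proteins release the client from Hsp70 by exchanging its nucleotide. Bag3, the heat-inducible member that links Hsp70 clients to autophagy, had 24.6 and 20.0 FPKM in PROM1 and 28.0 and 25.3 FPKM in control libraries (log2 change -0.25, interval -0.78 to 0.28). Bag4 had 6.07 and 3.99 FPKM in PROM1 and 8.61 and 6.61 FPKM in control libraries (-0.53, -1.26 to 0.21). Bag2, a cofactor that inhibits the ligase Stub1, had 0.733 and 0.511 FPKM in PROM1 and 1.33 and 2.01 FPKM in control libraries (-0.71, -1.63 to 0.22). The groups did not overlap in these 3 genes, with PROM1 the lower, and the intervals included 0. Bag5 had 1.26 and 1.46 FPKM in PROM1 and 1.01 and 1.49 FPKM in control libraries, which overlapped. Bag6, which guards tail-anchored and mislocalised membrane proteins, was the most abundant, with 80.0 and 85.4 FPKM in PROM1 and 79.0 and 78.5 FPKM in control libraries (log2 change 0.07, interval -0.37 to 0.50). The groups did not overlap, by a small margin.

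The sum of Bag6 was steady, but its listed transcripts were not. Transcript NM_057171 was assigned 2.85 and 32.2 FPKM in PROM1 libraries and 0.00328 and 0.00369 FPKM in control libraries. In PROM1 library 2, NM_001252468 was at 26.8 FPKM, where it was at 51.3 FPKM in PROM1 library 1 and at 48.7 and 55.0 FPKM in control libraries. The library in which NM_057171 was highest was thus the library in which NM_001252468 was lowest. The authors' deposited table gave p = 0.0338 and q = 0.865 for NM_057171. Similar divisions were seen in other genes of the 9 with more than 1 listed transcript. Dnaja3 NM_023646 had 4.47 FPKM in control library 1 and under 0.001 FPKM in the other 3 libraries. The Dnajb2 transcript NM_001159884 had 1.66 and 0.000202 FPKM in PROM1 libraries and 3.23 and 8.58 FPKM in control libraries, while NM_001159883 had 1.82 and 4.12 FPKM in PROM1 libraries and 1.92 and 2.71 FPKM in control libraries. The lower sum of Dnajb2 in PROM1 was therefore held by the first of its 2 transcripts.

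**Figure D3:**
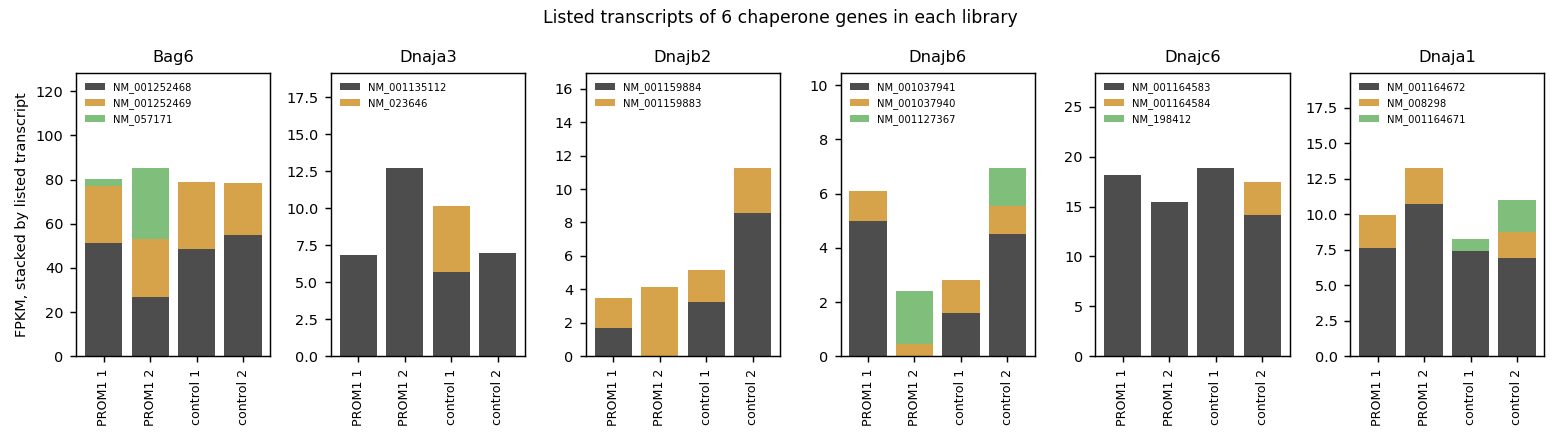
FPKM of the listed transcripts (stacked colours) of 6 genes in PROM1 libraries 1 and 2 and control libraries 1 and 2. The Bag6 stack is level at 78.5 to 85.4 FPKM while its division differs in PROM1 library 2, and in the other genes a transcript is seen in some libraries and near 0 in others.

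Hsp90aa1, the stress-inducible Hsp90 alpha, differed more between the libraries of a group than between the group means. It had 34.6 and 50.3 FPKM in PROM1 libraries 1 and 2 and 31.8 and 56.2 FPKM in control libraries 1 and 2, so library 2 was the higher in each group, and its log2 change was -0.02 (interval -0.87 to 0.84; 0.0046 with median scaling and 0.0063 with quantile normalization). The labels do not pair libraries of the same number. Hsp90ab1 stood 33.7 and 20.7 times above Hsp90aa1 in PROM1 libraries and 36.1 and 20.6 times in control libraries. Stip1 (Hop), which joins Hsp70 to Hsp90, had 81.3 and 64.8 FPKM in PROM1 and 73.3 and 94.3 FPKM in control libraries, and Ptges3 (p23), which stabilises the closed Hsp90 dimer, had 12.7 and 10.1 FPKM in PROM1 and 15.1 and 18.3 FPKM in control libraries. The groups overlapped for Stip1 and not for Ptges3 (log2 change -0.52, interval -1.10 to 0.07). Stub1 (CHIP), the ubiquitin ligase of Hsp70 and Hsp90 clients, had 59.6 and 66.6 FPKM in PROM1 and 71.2 and 72.3 FPKM in control libraries (log2 change -0.18, -0.63 to 0.27).

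The partners of these machines that the name rule does not take, 49 genes in all, had 47 with values, all tested, and Hspbap1 and Cryab were not analysed here. Of the 47, 24 had higher and 23 lower means in PROM1, with a median log2 change of 0.02 beside -0.03 for all tested genes. None passed the test (limma, adjusted). An unadjusted p under 0.05 by limma was found for 1 of the 47, Vbp1, where 4.7% of all tested genes had one.

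Of the small heat shock proteins that the rule takes, Hspb6 and Hspb11 each had 1 library that stood apart. Hspb6 (Hsp20) had 6.39 and 7.67 FPKM in PROM1 and 7.70 and 21.9 FPKM in control libraries, and Hspb11, a protein of intraflagellar transport (Ift25), had 11.3 and 10.1 FPKM in PROM1 and 8.85 and 27.6 FPKM in control libraries. In both genes control library 2 was far above the other 3, and without it the log2 changes were -0.12 for Hspb6 and 0.24 for Hspb11, where with it they were -0.82 and -0.53. Hspb8, which works with Bag3, was nearly level, with 8.12 and 8.82 FPKM in PROM1 and 8.34 and 7.28 FPKM in control libraries.

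TRiC folds actin and tubulin, the main cargo of a growing axon's cytoskeleton, and its subunits are needed in equal number in the ring. Its 7 subunits named Cct had summed FPKM of 253.3 and 267.1 in PROM1 and 207.9 and 279.8 in control libraries, and the groups overlapped. Within each library the most abundant subunit was 4.77 and 6.99 times the least abundant in PROM1 and 5.29 and 5.42 times in control. Cct2 (beta) led with 79.0 and 69.5 FPKM in PROM1 and 69.2 and 78.4 FPKM in control libraries. Cct4 (delta) had 44.5 and 45.8 FPKM in PROM1 and 33.4 and 38.6 FPKM in control libraries, and Cct5 (epsilon) had 48.9 and 53.0 FPKM in PROM1 and 32.8 and 48.5 FPKM in control libraries. For these 2 subunits the groups did not overlap, with log2 changes of 0.32 (interval -0.15 to 0.80) and 0.34 (-0.27 to 0.96). Cct6a (zeta) had 22.9 and 32.9 FPKM in PROM1 and 27.1 and 42.3 FPKM in control libraries, the most negative change of the 7 subunits (-0.29, -1.06 to 0.47). Tcp1 (alpha), which completes the ring and is not taken by the rule, had 30.4 and 18.2 FPKM in PROM1 and 27.9 and 29.5 FPKM in control libraries. Cct3 (gamma) had 19.0 and 34.2 FPKM in PROM1 and 15.2 and 26.6 FPKM in control libraries, Cct7 (eta) 22.4 and 21.8 FPKM in PROM1 and 17.3 and 31.0 FPKM in control libraries, and Cct8 (theta) 16.6 and 9.93 FPKM in PROM1 and 13.1 and 14.5 FPKM in control libraries, all with overlap. The 7 subunits were divided, 4 with higher and 3 with lower means, and their median log2 change was 0.0089. That median was 0.34 without control library 2, -0.08 without control library 1, -0.04 without PROM1 library 1 and 0.10 without PROM1 library 2.

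For 3 of the 5 tested prefoldin subunits the order of the libraries was the same in both groups, though the labels do not pair the libraries. How often all tested genes share an order in this way was not counted. Pfdn5, which carries actin and tubulin to TRiC with the other subunits and binds Myc, had 4.22 and 33.3 FPKM in PROM1 libraries 1 and 2 and 14.0 and 27.4 FPKM in control libraries 1 and 2. Pfdn6 had 2.32 and 15.6 FPKM in PROM1 and 5.09 and 12.4 FPKM in control libraries, and Pfdn4 had 5.02 and 8.45 FPKM in PROM1 and 8.05 and 12.6 FPKM in control libraries. In each of them library 2 was the higher in both groups. Pfdn1 had 2.42 and 2.14 FPKM in PROM1 and 1.78 and 2.33 FPKM in control libraries, and Pfdn2 had 1.74 and 0.337 FPKM in PROM1 and 0.760 and 2.92 FPKM in control libraries, with no common order of the libraries. The median log2 change of the 5 subunits was -0.46, and it was 0.04 without PROM1 library 1, -0.88 without PROM1 library 2, -0.86 without control library 1 and 0.12 without control library 2. Vbp1, the subunit that binds the von Hippel-Lindau protein, stood apart from them with 5.70 and 7.60 FPKM in PROM1 and 3.43 and 2.87 FPKM in control libraries. The groups did not overlap (log2 change 0.87, interval 0.19 to 1.56, adjusted p = 0.939 by limma). Its unadjusted p was above 0.05 without PROM1 library 2 and without either control library.

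**Figure D4:**
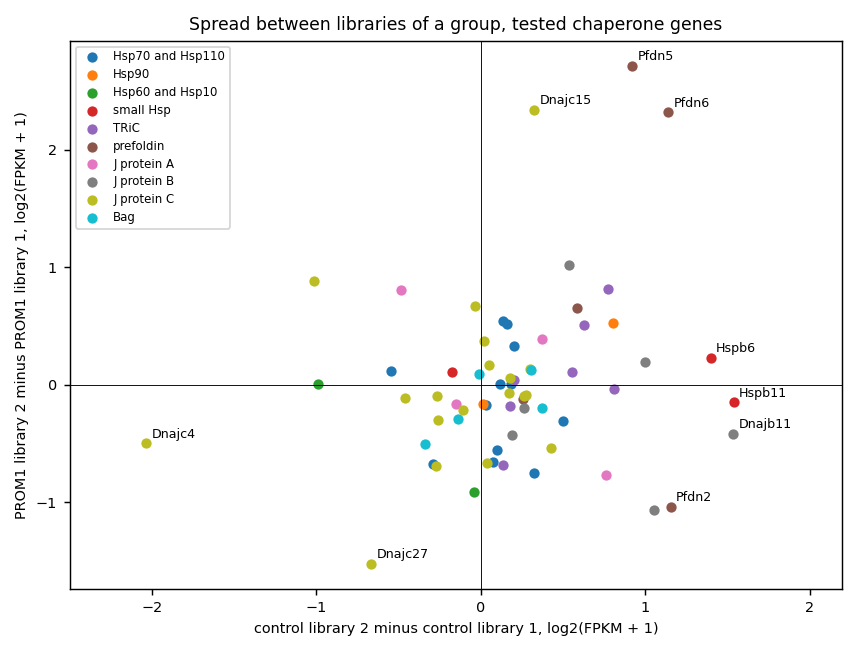
Difference between the libraries of a group (library 2 minus library 1, on log2(FPKM + 1)) in PROM1 cultures (vertical axis) and control cultures (horizontal axis) for the 65 tested genes, coloured by class. Pfdn5 and Pfdn6 are high on both axes and Pfdn2 is high on the control axis and low on the PROM1 axis, while Dnajc4, Hspb6, Hspb11 and Dnajb11 differ mainly between the control libraries and Dnajc15 and Dnajc27 mainly between the PROM1 libraries.

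Over all tested genes the spread between libraries was wider for short messages, and among the members the order by length was not the same in both groups. Transcript lengths of the RefSeq records were taken from GENCODE M21 for 64 of the 65 genes. For the 6 members under 1000 nt (Hspe1, Hspb11, Dnajc4, Dnajc19, Pfdn4 and Pfdn6), the median absolute difference between libraries of a group on the log2 scale was 0.57 in PROM1 and 1.08 in control. For the 42 members of 2000 nt and over it was 0.32 in PROM1 and 0.23 in control, and for the 16 members from 1000 nt up to but under 2000 nt it was 0.21 in PROM1 and 0.46 in control. Over all tested genes it was 0.56 in PROM1 and 0.67 in control under 1000 nt, 0.39 in both groups in that middle range, and 0.27 in PROM1 and 0.26 in control at 2000 nt and over. All 3 members with an absolute log2 change of 1 or more, Dnajc19, Hspe1 and Dnajc4, were under 1000 nt. How many of all tested genes with such a change were as short was not counted. The part of message length in those changes was not tested.

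The 5 genes under the filter were Hspa13, Dnajb3, Dnajc3, Dnajc9 and Dnajc12. Hspa13, an Hsp70 of the endoplasmic reticulum, had 0.359 and 0.173 FPKM in PROM1 and 0.827 and 2.33 FPKM in control libraries, and in the authors' deposited table it had the lowest p of the members (p = 0.00795, q = 0.721). Dnajc12, a partner of aromatic amino acid hydroxylases, had 1.49 and 0.902 FPKM in PROM1 libraries and under 0.001 FPKM in both control libraries. Dnajb3 had 0.515 and 2.74 FPKM in PROM1 libraries, and 0.106 FPKM in control library 1 and 0 in control library 2. Dnajc3 (p58IPK), a J protein of the endoplasmic reticulum, had 1.14 and 1.35 FPKM in PROM1 and 0.787 and 0.650 FPKM in control libraries. Dnajc9, a histone chaperone, was at most 1.05 FPKM in any library. Of the 84 member transcripts 3 had a deposited p under 0.05 in the authors' deposited table (3.57%), where 4.71% of all transcripts did: those of Hspa13, Bag2 and Bag6 NM_057171.

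The group values in the authors' deposited table are not means of the library values. For Bag2 they were 4.70 FPKM in PROM1 and 9.94 FPKM in control in the authors' deposited table, above every library value of that gene. In the authors' deposited table, the PROM1 group value lay above both PROM1 libraries for 45 of the 83 member transcripts with library values, and the control group value lay above both control libraries for 42. For Bag1, a founding member of the Bag family, only group values were given in the authors' deposited table, 9.22 FPKM in PROM1 and 12.5 FPKM in control (p = 0.353, q = 0.879).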

How the data were processed

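Polyadenylated RNA over 200 nt from 2 PROM1 and 2 control cultures was sequenced as 50-nt single reads, per the labels' protocols. CASAVA, TopHat2 and build mm9 are named in the submitters' processing notes. Annotation and strandedness of counting were not given in the sources used here. Per the file headers, the authors computed FPKM per RefSeq transcript and library with Cufflinks, and deposited a group FPKM, p-values and q-values of their comparison, a −log10 of the p-values, a log2 ratio and a second log2 ratio in which a group at 0 gives a very large score; of these the group FPKM, p and q are quoted. Symbols came from the descriptions (13995 transcripts) or by accession (241). Transcripts with a missing library value (39) were left out, and FPKM was summed per symbol. Those averaging 1 FPKM or more entered limma 3.58.1 (R 4.3.3), fitted with a variance trend on log2(FPKM + 1), which understates changes of low genes, and p-values were adjusted by Benjamini-Hochberg over 10108 genes, called under 0.05. FPKM carries no counts, so depth is unknown and no counting interval was given. Summed FPKM was 357805 and 379596 in PROM1 and 361232 and 385963 in control libraries.

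The members and lists were chosen with earlier results of these data known. Library values were given for members with an unadjusted p under 0.05, the 3 most abundant and the most changed in each direction of each of 10 classes, and genes with textbook roles (41 members and 6 partners); members under the filter and the remaining members described were named after their values were seen. Promoters are from RefSeq (GRCm38.p6), another build than mm9, and only their own coordinates are given. Alternatives were another pseudocount, other filters, 2 other scalings, single transcripts, mRNA records only, a replicate block and leaving out each library.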

Additional observations from a re-analysis of the deposited data

How the results depend on the processing

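No chaperone gene was called by limma under any of the 12 alternatives. Where all libraries were kept, 0 to 5 members had an unadjusted p under 0.05. The lowest was 0 of 65 with a pseudocount of 0.1, against 458 of 10108 genes. The highest was 5 of 70 without a filter on level, against 581 of 11258 genes. Over all genes, the 2 calls became 0 when each listed transcript was fitted by itself and 0 with mRNA accessions only, and ran from 2 to 15 without each library in turn; the cause was not tested. The median log2 change of the members ran from -0.17 (without control library 1) to 0.0194 (without control library 2), and from -0.10 to -0.05 under the other alternatives that kept all libraries, the lowest with a pseudocount of 0.1. With the replicate number as a block, 2 genes and 0 members were called, and no call changed. In that fit 4 of 65 members had an unadjusted p under 0.05, against 639 of 10108 genes. Deviations of same-numbered libraries from their group means correlated at 0.14 over all tested genes and 0.19 over the members, across genes; the labels do not pair the libraries, so the numbers were not treated as pairs.

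Of the named genes, 0 changed call under the alternatives, which held all 47 except for 36 with a minimum mean of 5 FPKM and 40 with single transcripts. The sign changed for Hsp90aa1 with median scaling (0.0046) and quantile normalization (0.0063), for Hsf1 with quantile normalization (0.0083) and for Dnajc6 as a single transcript (0.0325). Without each library in turn the sign changed for 36 of the 65 members and the log2 change moved by over 1.5 times for 58. For named genes whose sign changed, these log2 changes ran from -0.075 to 0.23 for Bag5, -0.083 to 0.10 for Cct2, -0.61 to 0.019 for Cct6a, -0.27 to 0.54 for Dnaja3, -0.31 to 0.72 for Dnajb14, -0.12 to 0.34 for Dnajc5, -0.082 to 0.013 for Hsf1, -0.42 to 0.38 for Hsp90aa1, -0.14 to 0.022 for Hsp90ab1 and -0.013 to 0.10 for Hspa12a. They ran from -0.52 to 0.23 for Hspa1a, -0.47 to 0.077 for Hspa1b, -0.35 to 0.15 for Hspa9, -1.30 to 0.24 for Hspb11, -0.086 to 0.83 for Hspd1, -0.024 to 0.23 for Pfdn1, -1.99 to 0.73 for Pfdn5, -1.45 to 0.87 for Pfdn6 and -0.63 to 0.081 for Tcp1. A lone library in a group is assumed to vary like the other group. Depth is unknown, so values under 1 FPKM may be a few reads.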
